A study of Mus musculus with 4 samples.

Results

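The genes described here are 10 genes linked to lipid-associated macrophages, the state that macrophages take in fat tissue, plaques and damaged nerve tissue when they clear lipid: Gpnmb, Trem2, Tyrobp, Apoe, Lpl, Lgals3, Cd9, Spp1, Fabp5 and Plin2. The rule that chose them lists names and uses no measured value, although earlier results of these data were known, and all 10 were found by symbol among the 55536 annotated genes. RNA came from the cytosolic fraction of bone marrow-derived macrophages of C57BL/6J mice, primary cells grown out of marrow, treated for 15 minutes with 100 ng/ml of lipid A, which is the part of bacterial lipopolysaccharide sensed by Toll-like receptor 4. The 4 libraries, labelled as biological replicates 1 to 4, were made from total RNA depleted of ribosomal RNA. They form 1 group that shares strain, cell type, fraction, agent, dose and time. The labels name 1 donor record for all of them and no separate animals or cultures, give no sex or age, and name no transgene or deleted gene. No untreated library and no nuclear fraction was analysed here, so every value is a level in lipid A-treated cells and not a response to it.

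As background, TREM2 is a surface receptor of macrophages and microglia that binds lipids, lipoproteins and apolipoprotein E. It has no signalling tail of its own and signals through its partner TYROBP (also called DAP12), which recruits the kinase SYK. Around this receptor, lipoprotein lipase (Lpl) releases fatty acids from lipoproteins, FABP5 carries fatty acids inside the cell and perilipin 2 (Plin2) coats the droplets in which they are stored.

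The transcripts of the receptor itself carried the clearest case of alternative coding sequence among the 10 genes. Trem2 lies on chromosome 17 from 48346401 to 48354147 on the plus strand of mm10, and 2 protein-coding transcripts took nearly all of its abundance. Trem2-202 begins its exon 4 earlier than Trem2-201, by 55 bases from 48351691 to 48351745. The stretch is printed below from the GENCODE M21 transcripts, 5′ to 3′, with 20 bases on either side, and capitals mark the bases that only Trem2-202 carries.
Trem2-201: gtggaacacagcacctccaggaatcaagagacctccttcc
Trem2-202: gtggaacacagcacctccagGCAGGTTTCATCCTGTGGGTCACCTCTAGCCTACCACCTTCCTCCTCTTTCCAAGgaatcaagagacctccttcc
The extension makes exon 4 240 bases long instead of 185. Its length leaves a remainder of 1 when divided by 3, so the frame after it differs, and the annotated stop codon moves from 48352022-48352024 to 48352033-48352035. The coding region is 681 bases (227 codons) in Trem2-201 and 747 bases (249 codons) in Trem2-202, stop codon not counted. Trem2-202 made up 22.3%, 21.5%, 22.0% and 21.6% of Trem2 in replicates 1, 2, 3 and 4 in the transcript tables that give isoform percents. These are called alignment-based here from their column layout only, since the method behind them is not given. In the target tables, a second quantification, Trem2-202 made up 22.9%, 20.9%, 21.3% and 21.7%. All 8 values lie within a narrow band, and Trem2-201 held 76.5% ± 0.55 (SD, n = 4) and 74.8% ± 0.83 (SD, n = 4) in these tables. The remainder held Trem2-203, a transcript with a retained intron, at 1.29% and 1.28%, and Trem2-204, at 0.35% and 2.24%.

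The libraries held 30088678 (replicate 1) to 47961117 (replicate 2) expected counts on annotated genes, so a count of 0 would allow a level of up to 0.0997 to 0.0626 CPM (counts scaled by the library total), from counting error only. The 10 genes lie far above this floor, with 3655 (Cd9, replicate 3) to 729085 (Gpnmb, replicate 2) expected counts, and together held 2.63% to 2.96% of a library's counts. TPM, the length-corrected abundance that the authors deposited, was taken up mostly by the small 7SL RNAs Rn7s1 and Rn7s2, with 57.1% to 63.3% of it, while protein-coding genes held 22.9% to 32.4%. Deposited TPM therefore moves with the 7SL share of a library, and levels are also given after rescaling so that the 22028 protein-coding genes alone make up the whole ("rescaled TPM"). Replicate 1 stood apart from the other 3 in 3096 of 14041 genes tested, 22.0% of them. Genes of cell division were among these: 17 of a list of 18 were higher in replicate 1, and their summed TPM was 507 there and 121, 124 and 174 in replicates 2, 3 and 4.

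All 10 macrophage markers of a list (Adgre1, Csf1r, Cd68 and others) were at 1 TPM or more, with Cd68 at 748 ± 132 TPM (SD, n = 4). Several of the 10 genes are also known from other cell types, and those cells' defining markers were low or absent. None of 7 adipocyte markers reached 1 TPM, their summed level was 0.03 to 0.10 TPM per library, and Lep, Cidec, Cfd and Retn were at 0. Of 6 hepatocyte markers 5, Alb among them, were at 0, and the highest count of any of the 6 in a library was 2. None of 5 melanocyte and none of 6 stromal markers reached 1 TPM, with summed levels of 0.10 to 0.21 and 0.03 to 1.65 TPM. The stromal maximum was in replicate 3, where Apoe and Plin2 were high, against 0.14, 0.10 and 0.03 TPM in replicates 1, 2 and 4. Of 6 neutrophil markers 3 reached 1 TPM, led by S100a9 (14.8 TPM) and then S100a8 (10.3), while all 6 summed to 20.7, 26.5, 40.3 and 25.8 TPM in replicates 1 to 4, again highest in replicate 3. The part of these cells in the Apoe and Plin2 levels was not tested. Of 8 osteoclast markers 3 reached 1 TPM, namely Nfatc1 at 12.6 TPM, Acp5 at 1.56 and Ctsk at 1.25, while Calcr was at 0, and the 8 summed to 13.8 to 20.5 TPM. Among microglial markers P2ry12 was at 2.48 TPM and Sall1 at 0.

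**Figure D1:**
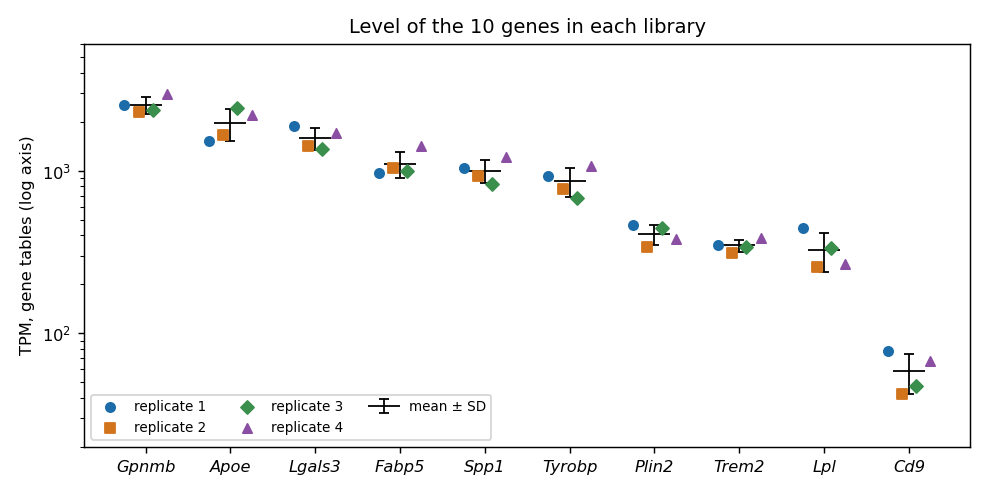
Deposited TPM (log axis) of the 10 genes, ordered by mean, with 1 symbol per library and a horizontal line with bars for the mean ± SD over 4 libraries. Gpnmb is highest at a mean of 2538 TPM, 9 genes lie above 250 TPM in every library, and Cd9 lies apart at 42.5 to 77.3 TPM.

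The receptor pair was abundant, with the adaptor above the receptor. Tyrobp (chromosome 7, 30413760 to 30417585, plus strand) was at 926, 767, 678 and 1069 TPM in replicates 1, 2, 3 and 4. Trem2 was at 349, 313, 341 and 384 TPM in the same order. Trem2 varied least of the 10 genes on this scale, but not after rescaling, and Tyrobp was the higher of the pair in every library. Rescaled Trem2 was 1159, 1353, 1492 and 1184 in replicates 1 to 4, a mean of 1297 ± 156 (SD, n = 4). Rescaled Tyrobp was 3078, 3317, 2965 and 3297, a mean of 3164 ± 171.5 (SD, n = 4). Relative to its mean, Tyrobp was therefore the steadier of the pair after rescaling. The ratio of Tyrobp to Trem2 TPM was 2.47 ± 0.35 (SD, n = 4), from 1.99 in replicate 3 to 2.79 in replicate 4. Hcst, which encodes DAP10, the other small adaptor that can pair with TREM2, was far lower, and Tyrobp exceeded it 73.2-, 73.5-, 70.7- and 75.8-fold in TPM. That ratio was nearly the same in the 4 libraries. Among protein-coding genes Tyrobp ranked 24th to 28th by TPM and Trem2 67th to 101st.

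Gpnmb, which encodes a transmembrane glycoprotein of lysosomes and the cell surface, had the highest mean of the 10 genes. It lies on chromosome 6 from 49036546 to 49070929 on the plus strand and was at 2518, 2299, 2365 and 2967 TPM in replicates 1 to 4. It ranked 8th among protein-coding genes in each of the 4 libraries. Rescaled, it was at 8375, 9944, 10350 and 9150, a mean of 9454 ± 875 (SD, n = 4).

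Apoe, the apolipoprotein that macrophages secrete and that TREM2 binds, came next by mean TPM and had the widest spread of the 10 genes after rescaling. Apoe (chromosome 7, 19696109 to 19699188, minus strand) was at 1521, 1648, 2425 and 2199 TPM. Its rescaled TPM was 5059, 7127, 10610 and 6780, lowest in replicate 1 and highest in replicate 3. In replicate 3 Apoe ranked 6th among protein-coding genes and lay above Gpnmb, with a ratio of Apoe to Gpnmb of 1.03, while in replicates 1, 2 and 4 the ratio was 0.604, 0.717 and 0.741. Apoc2, which encodes the activator of lipoprotein lipase and lies in the same gene cluster, was 198 to 359 times lower than Apoe in TPM.

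Lpl, the secreted lipase that splits the triglycerides of lipoproteins, lies on chromosome 8 from 68880491 to 68907448 on the plus strand. It was at 444, 257, 332 and 266 TPM in replicates 1 to 4, and at 1475, 1110, 1452 and 821 rescaled TPM. Replicates 1 and 3 were the high ones on both scales, and replicate 4 was the lowest after rescaling. Gpihbp1, which anchors lipoprotein lipase to capillary walls, was at 0 in all 4 libraries.

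Inside the cell, Fabp5 was above Plin2. Fabp5 (chromosome 3, 10012548 to 10016607, plus strand) was at 965, 1042, 997 and 1408 TPM, and Plin2 (chromosome 4, 86648386 to 86670060, minus strand) was at 464, 339, 441 and 379 TPM. The ranges of the 2 genes do not overlap. Each was also far above a close relative: Fabp5 exceeded Fabp4, the fatty acid binding protein best known from fat cells, 15.9-, 16.2-, 12.2- and 17.2-fold, and Plin2 exceeded Plin3, a perilipin found on small droplets, 18.1- to 35.2-fold. Rescaled Fabp5 was 3210 in replicate 1 and 4508, 4362 and 4341 in replicates 2, 3 and 4, so replicate 1 lies below the other 3, which are close together. Rescaled Plin2 was 1544, 1465, 1931 and 1168, high in replicate 3 and low in replicate 4.

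The lectin, the matrix protein and the tetraspanin spanned the widest range. Lgals3, which encodes galectin-3, a lectin that gathers at damaged lysosomes, lies on chromosome 14 from 47367751 to 47386160 on the plus strand and was at 1870, 1420, 1357 and 1710 TPM. It was 2.95, 3.36, 3.78 and 3.00 times as high as Lgals1, which encodes galectin-1. Spp1 encodes osteopontin, a secreted ligand of integrins and CD44, lies on chromosome 5 from 104435118 to 104441050 on the plus strand, and was at 1036, 921, 832 and 1211 TPM. After rescaling Spp1 held within 3446 to 3981 and Lgals3 within 5272 to 6218. Cd9, a tetraspanin that organises membrane proteins, lies on chromosome 6 from 125460266 to 125494791 on the minus strand and was at 77.3, 42.5, 47.1 and 67.1 TPM. Cd9 was the lowest of the 10 genes in every library, yet it exceeded its relative Cd81 1.05- to 1.75-fold. The pairs set side by side in these paragraphs were chosen with values known.

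By mean TPM the order was Gpnmb, Apoe, Lgals3, Fabp5, Spp1, Tyrobp, Plin2, Trem2, Lpl and Cd9. Neighbours in that order were mostly not separated by the spread between libraries. The ranges of 2 neighbouring pairs did not overlap: Tyrobp was above Plin2, by 2.12-fold in mean TPM, and Lpl above Cd9, by 5.55-fold. In 2 other pairs the order held in all 4 libraries although ranges overlapped, Lgals3 above Fabp5 and Spp1 above Tyrobp, the latter with a log2 ratio of 0.23 ± 0.06 (SD, n = 4). The remaining 5 neighbouring pairs kept their order in 3 of 4 libraries. In all 4 libraries 9 of the 10 genes ranked among the top 500 protein-coding genes, and 6 (Gpnmb, Apoe, Lgals3, Fabp5, Spp1 and Tyrobp) among the top 100.

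Levels in the target tables depended on the scale. On the deposited scale the mean TPM of each gene was only 0.341 to 0.394 times that of the gene tables, and it was highest in replicate 1 for all 10 genes (1337 TPM for Gpnmb against 671 to 853 in the other libraries). After rescaling both tables over protein-coding genes, the ratio was 0.941 to 1.05 for the 10 genes.

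**Figure D2:**
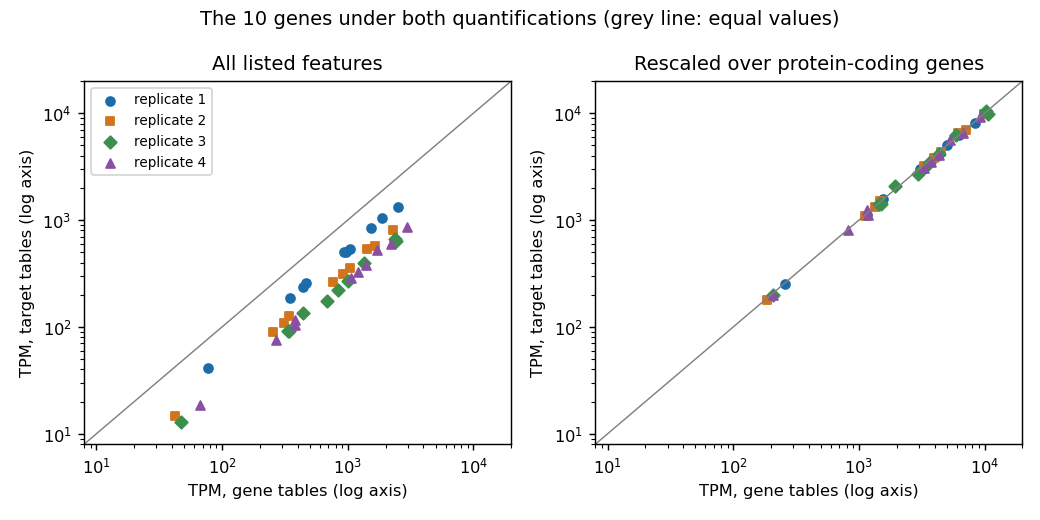
TPM in the target tables against TPM in the gene tables for the 10 genes, both log axes, 1 point per gene and library, with the grey line at equal values. With deposited TPM (left) all points lie below the line, by a different distance in replicate 1, and after rescaling over protein-coding genes (right) they lie along it, with mean ratios of 0.941 to 1.05.

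The spread between libraries was compared on log2 CPM scaled by TMM, which corrects for library composition. The median SD of the 10 genes was 0.20, against 0.26 over all 14041 genes tested and 0.22 over the 445 with a mean of at least 100 TPM. Tyrobp (SD 0.10), Spp1 (0.12) and Lgals3 (0.12) were the steadiest, and Apoe (0.47), Lpl (0.42) and Plin2 (0.34) the most variable. Of the 10 genes 6 lay below and 4 above the median of all genes. All 10 varied by more than Poisson counting allows (Benjamini-Hochberg adjusted p under 0.05), which was also true of 82.8% of all genes tested, so at this depth counting error is a small part of each difference.

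**Figure D3:**
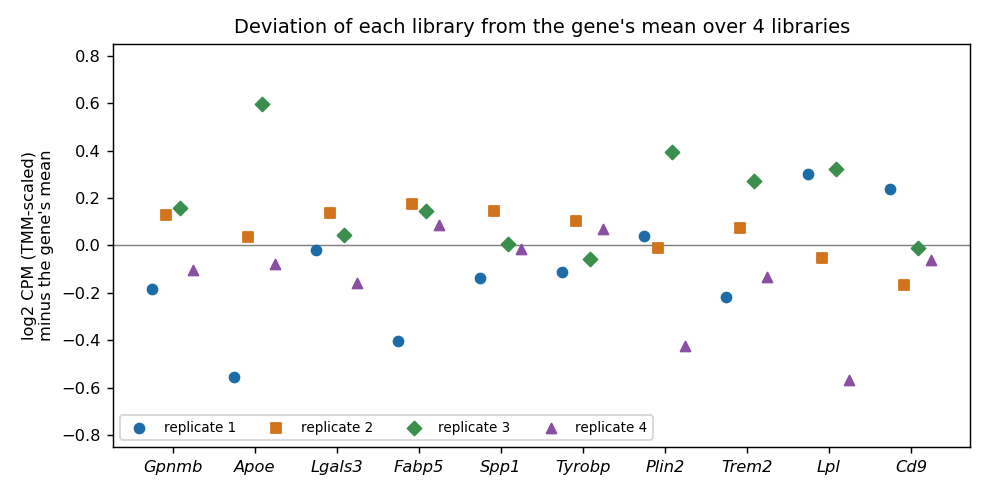
TMM-scaled log2 CPM of each gene in each library minus that gene's mean over the 4 libraries. Apoe and Fabp5 are low in replicate 1, Apoe and Plin2 high in replicate 3, Lpl and Plin2 low in replicate 4, while Tyrobp and Spp1 stay close to the line (SD 0.10 and 0.12).

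With 1 group, a test can ask only whether 1 library stands apart from the other 3, which was done with edgeR's quasi-likelihood test over all genes. In replicate 1, 1 of the 10 genes passed an adjusted p of 0.05, beside 22.0% of all genes: Fabp5 was lower, as were 7.58% of all genes. Its log2 CPM was 10.10 in replicate 1 and 10.59 to 10.68 in the other 3, a log2 fold of -0.54 ± 0.14 (SE, edgeR adjusted p = 0.047). This call is close to the threshold: the adjusted p was 0.0558 with DESeq2's size factors, 0.142 without the filter on low counts, 0.311 with the target tables' counts, 0.212 without replicate 2 and 0.0757 without replicate 3. It was 7.95e-07 by DESeq2's Wald test, 0.0459 without the 7SL RNAs and 0.0187 without replicate 4. The genes of cell division were higher in the same library, and their part in the Fabp5 difference was not tested.

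The other 9 genes did not pass in replicate 1. Apoe had a log2 fold of -0.77 ± 0.31 (SE, edgeR adjusted p = 0.147), the lowest of the 4 libraries, and Cd9 had one of 0.32 ± 0.09 (SE, edgeR adjusted p = 0.0691), the highest of the 4. Without replicate 4, Apoe (log2 fold -0.97, edgeR adjusted p = 0.0462) and Gpnmb (log2 fold -0.40, edgeR adjusted p = 0.0183) passed as well, and with the target tables' counts Cd9 passed (log2 fold 0.49, edgeR adjusted p = 0.0324). The median log2 fold of the 10 genes in replicate 1 was -0.17, against -0.01 over all genes tested.

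In replicates 2, 3 and 4 edgeR called none of the 10 genes and 0 of 14041 genes (0%). Unadjusted p was under 0.05 for 277, 135 and 104 genes in these libraries, none of them among the 10, and DESeq2 called 8, 3 and 17 genes, again none of the 10. Without replicate 1, edgeR called 82 of 14306 genes in replicate 2, none of the 10 among them. Each of these tests has replicate 1, the library that stood apart, among the libraries compared against. A lack of calls therefore does not show that replicates 2, 3 and 4 agree. The widest folds among the 10 genes were Apoe in replicate 3, at 0.77 ± 0.32, and Lpl in replicate 4, at -0.77 ± 0.31 (log2, SE). Plin2 had log2 folds of 0.51 ± 0.27 in replicate 3 and -0.58 ± 0.29 in replicate 4. Median log2 folds of the 10 genes were 0.11, 0.19 and -0.16 in replicates 2, 3 and 4, beside -0.06, -0.02 and -0.01 over all genes.

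Beyond Trem2, the annotated transcripts differed in how far their shares could be read. The 10 genes have 54 annotated transcripts, and the same transcript led by mean share in both quantifications for all 10, and for 9 without replicate 1, where Lgals3 was the exception. Cd9-201, Fabp5-201 and Lpl-201 held 99.8%, 99.5% and 99.5% of their genes in the alignment-based tables, and Spp1-201 held 96.0%. For these 4 genes a single transcript stands for the gene.

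Apoe had a large share outside its coding transcripts. Apoe-209 led with 66.2% ± 4.2 (SD, n = 4), while Apoe-202, annotated as a processed transcript without a coding region, held 27.3%, 22.9%, 22.9% and 22.9% in replicates 1 to 4 and 26.3% to 32.6% in the target tables. Transcripts with the coding region of Apoe-209 summed to 75.8% ± 2.2 (SD, n = 4), and to 71.1% ± 2.7 (SD, n = 4) in the target tables. Gpnmb-201 held 91.9% ± 1.9 and 81.4% ± 4.0 (SD, n = 4), with Gpnmb-203, which has a shorter coding region of 1578 instead of 1722 bases, at 6.19% and 15.5%. Plin2-201 held 84.6% and 73.4%, beside the noncoding Plin2-208 at 8.95% and 8.78% and the protein-coding Plin2-207 at 5.21% and 11.9%.

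For Lgals3 and Tyrobp the shares depended on the quantification. Lgals3-203 held 65.1%, 39.4%, 49.1% and 40.1% in the alignment-based tables, so Lgals3-204 was ahead of it in replicates 2 and 4, at 49.4% and 48.1%. In the target tables Lgals3-203 held 70.7% to 80.3%. Both share 1 coding region of 792 bases with Lgals3-201, and the 3 summed to 98.2% ± 0.21 and 97.4% ± 1.57 (SD, n = 4), so the share of this coding region differed little between quantifications. Tyrobp-202 held 82.9%, 73.7%, 70.1% and 82.1% in the alignment-based tables but 96.7% to 99.1% in the target tables, where Tyrobp-201 had a mean of 0.685% instead of 22.2%. The annotated coding regions of Tyrobp-202 and Tyrobp-201 differ, at 421 and 342 bases. The share of each annotated region therefore also depended on the quantification. The 342 bases of Tyrobp-201 make 114 whole codons, but 421 is not a multiple of 3. The region annotated for Tyrobp-202 is thus not a complete frame, and the lengths do not show that the proteins differ. The range between libraries in the Lgals3 and Tyrobp shares is no larger than the gap between quantifications.

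**Figure D4:**
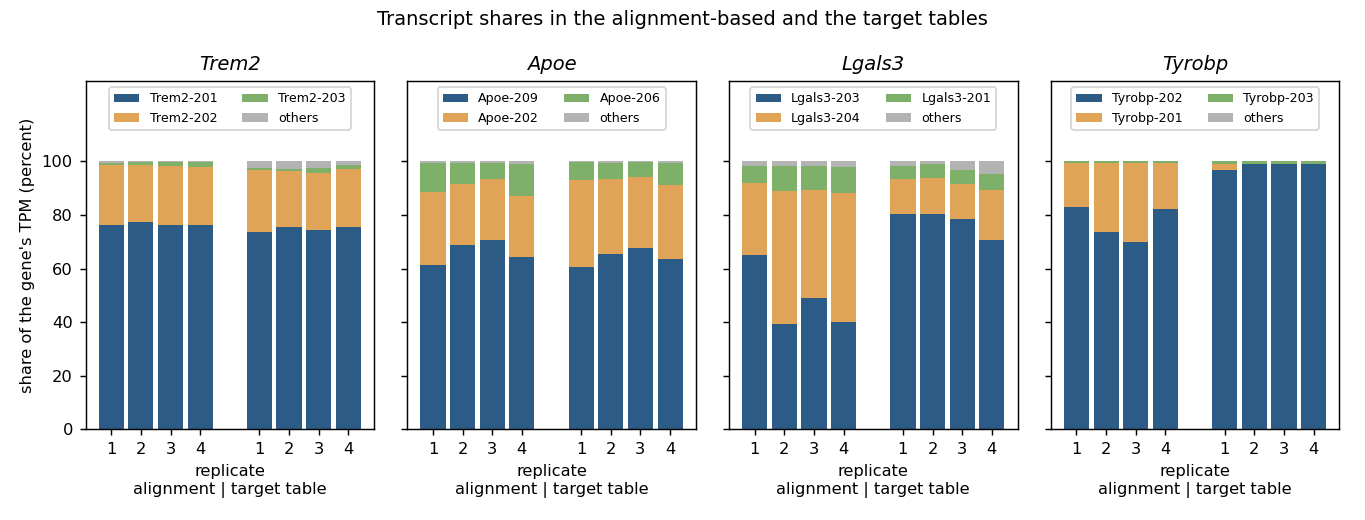
Share of each gene's TPM (percent) by transcript for Trem2, Apoe, Lgals3 and Tyrobp, with 1 stacked bar per library, alignment-based tables at left and target tables at right of each panel. Trem2 shares are level in all 8 bars, whereas Lgals3-203 moves from 39.4% to 65.1% between libraries and is above 70% in the target tables.

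Transcripts with a retained intron are annotated for 6 of the 10 genes. They held 0.346%, 0.312%, 0.882% and 1.40% of the TPM of these 6 genes in replicates 1, 2, 3 and 4. Gpnmb had the widest range of them, at 0.534%, 0.484%, 1.69% and 2.70%. Fabp5 was at 0.164%, 0.218%, 0.758% and 0.865%, and Trem2 at 1.00%, 0.748%, 1.80% and 1.62%. In Gpnmb, Fabp5, Trem2 and Lpl the values of replicates 3 and 4 all lay above those of replicates 1 and 2, whereas Apoe stayed at 0.0782% to 0.129%. Cd9, with at most 8 counts on such a transcript, was at 0%, 0.188%, 0.382% and 0.0745% and did not follow that order. Replicates 3 and 4 were also the higher ones over all 9119 protein-coding genes with such a transcript, at 4.57%, 4.42%, 5.92% and 6.82%. The nuclear RNA Malat1 was at 306, 242, 984 and 941 TPM and Neat1 at 35.1, 25.0, 115 and 79.4 TPM. The part of nuclear RNA in the retained-intron shares was not tested.

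**Figure D5:**
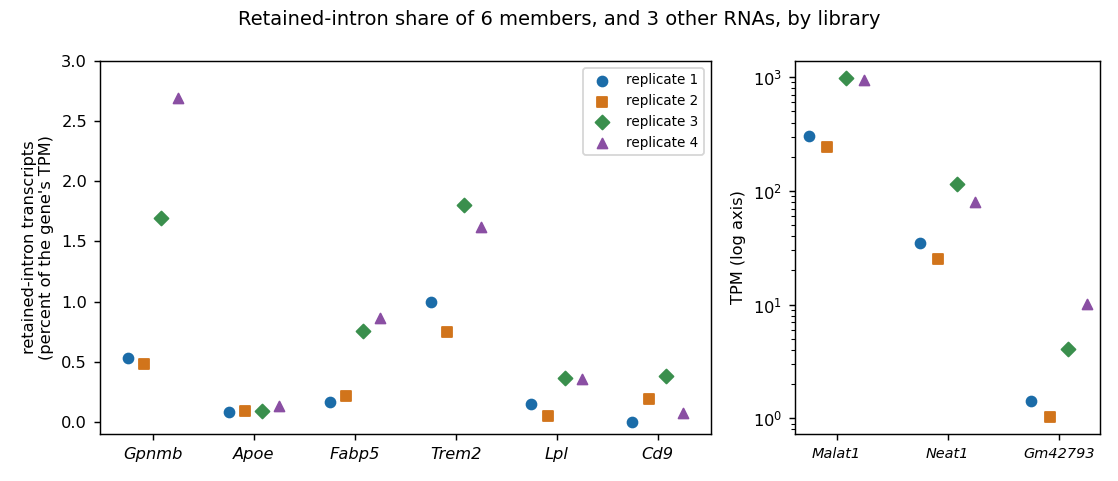
Left, share of TPM (percent) in retained-intron transcripts for the 6 genes that have one; right, TPM (log axis) of the nuclear RNAs Malat1 and Neat1 and of Gm42793, a short model that overlaps Spp1 on its strand; 1 symbol per library. Replicates 3 and 4 lie above replicates 1 and 2 for Gpnmb, Fabp5, Trem2, Lpl and the 3 RNAs at right.

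Gene copies and overlaps touched few reads. Expected counts were whole, within 0.005, in all 4 libraries for 7 genes, while those of Fabp5, Spp1 and Cd9 were not, so some of their reads were shared with other features. Gm42793, which overlaps the start of Spp1 on the same strand, held 70, 100, 324 and 697 counts, beside 58647 to 102992 for Spp1. Cd9 is overlapped by Gm28809, an antisense gene with 6 to 10 counts, and by Gm26728 with 1 to 8.

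Around the 10 genes, 6 lists of pathway genes show how much of the machinery was present. Of 26 genes of TREM2 and TYROBP signalling 23 reached 1 TPM, led by Ms4a7 at 336 ± 86.5, Ms4a4a at 154 ± 65.4 and Grb2 at 105 ± 32.3 TPM (SD, n = 4). MS4A proteins are membrane partners linked to TREM2 and GRB2 is an adaptor of tyrosine kinase signalling. The related receptors Trem1 and Trem3 were at 0.09 and 0.11 TPM, so Trem2 was the only one of the 3 above 1 TPM. Of the Treml receptors in the list, Treml2 was above 1 TPM as well, at 3.45 ± 0.76 (SD, n = 4). Treml4 was low, at 0.17 TPM, with 35, 10, 7 and 7 counts in replicates 1, 2, 3 and 4. A fold in Treml4 thus rests on few counts. In replicate 1, 6 of the 25 tested were higher and 5 lower, with Treml4 (log2 fold 2.56 ± 0.63, SE), Ms4a4a (-1.26 ± 0.15) and Pik3cg (1.11 ± 0.14) changed most. Syk, given here as the kinase that TYROBP recruits and not for the width of its fold, was lower there. It was at 51.2 TPM against 61.2 to 86.8 TPM, with a log2 fold of -0.71 ± 0.15 (SE). Vav3 and Lyn of the same list were higher there, at log2 folds of 0.54 ± 0.11 and 0.51 ± 0.10 (SE), so the list had no common direction.

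Lipid droplet and lipoprotein genes outside the 10 all lay below Lpl in mean TPM. Of 26 lipid droplet genes 17 reached 1 TPM, led by the lysosomal lipase Lipa (271 ± 26.4 TPM), the cholesterol-esterifying enzyme Soat1 (177 ± 35.8) and the cholesteryl ester hydrolase Nceh1 (103 ± 15.8). In replicate 1, 2 of 20 tested were higher and 4 lower, with the lipase genes Mgll at a log2 fold of -2.19 ± 0.56 and Pnpla2 at -0.89 ± 0.08, and Fabp3 at -0.88 ± 0.17 (SE). Of 22 lipoprotein partners 17 reached 1 TPM, led by Npc2, Pltp and Lrp1 at 225 ± 31.7, 196 ± 40.7 and 195 ± 58.0 TPM. In replicate 1, 3 of 19 tested were higher and 4 lower. Among those called, the widest folds were in Lrp8 (3.33 ± 0.21), in Abcg1, a cholesterol exporter, at -2.17 ± 0.23, and in Msr1, a scavenger receptor, at 1.70 ± 0.18 (log2, SE).

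Transcription factors known to act on such genes were detected throughout. All 23 regulators reached 1 TPM, led by Maf at 109 ± 23.9, Nfe2l2 at 81.0 ± 27.9 and Spi1 at 70.8 ± 15.5 TPM, and in replicate 1, 1 was higher and 5 lower. Those lower included Usf1 (-0.94 ± 0.15), Ppard, a fatty acid-sensing nuclear receptor (-0.90 ± 0.15), and Tfeb, a regulator of lysosomal genes (-0.74 ± 0.10; log2 fold, SE).

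Other genes of lipid-associated macrophages and disease-associated microglia were also all present, 30 of 30 at 1 TPM or more. The lysozyme Lyz2 (5104 ± 1259 TPM) and the cathepsins Ctsd (4204 ± 583) and Ctsb (2694 ± 574) were above Gpnmb in mean TPM. In replicate 1, 2 were higher and 5 lower, with Clec7a at -1.74 ± 0.14, Ctsl at 1.37 ± 0.15 and Mmp12 at 1.31 ± 0.19 (log2 fold, SE). Of 23 partners of osteopontin, galectin-3 and CD9, 21 reached 1 TPM, led by Lgals3bp (299.6 ± 43.0 TPM), Cd53 (229.9 ± 33.0) and Itgb1 (119 ± 18.8), and 5 were higher and 3 lower in replicate 1. Among them Cd44, a receptor of osteopontin, was higher at a log2 fold of 0.87 ± 0.14, beside Ptgfrn at 1.36 ± 0.26 and Itgav at 1.17 ± 0.25 (SE). In replicates 2, 3 and 4 edgeR called no gene in any of these lists. The shares called in replicate 1 stand beside 14.5% higher and 7.58% lower over all genes tested.

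The genes whose pattern over the 4 libraries was most like that of Trem2 were taken from 10419 genes averaging 100 counts or more, by Euclidean distance of centred log2 CPM. They were Myo1e (distance 0.03), Evl (0.05) and Myof (0.05), and 18 genes lay within 0.1. The nearest of the other 9 genes was Gpnmb, at 0.13, with 78 genes nearer. For Spp1 the nearest were Sdha (0.01), Ube3b (0.02) and Rpl41 (0.03), with 231 genes within 0.1, and the nearest of the other 9 genes was Tyrobp, at 0.12, with 352 genes nearer. Both patterns are measured over 4 libraries only.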

How the data were processed

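Each library came with tables that the authors deposited: 1 per gene, 1 per transcript, and another per transcript under target names. Per the file headers they give expected or estimated counts and TPM, and 1 transcript table gives the percent of its gene that each isoform holds. Text deposited with the files names mm10 and GENCODE M21; the sources used here do not give the aligner, the quantifier or any use of strand. The 26345 features naming no gene (0.0267% to 0.407% of deposited counts) were dropped. Expected counts were rounded, and genes averaging 10 counts or more entered edgeR 4.0.16 (TMM, prior count 2, R 4.3.3), each replicate against the other 3, with Benjamini-Hochberg adjustment over all genes; DESeq2 1.42.0 was an alternative. The lone replicate is assumed to vary like the other 3. P-values measure only how these samples vary, which may be technical variation. The fit was tested on simulated data with few changed genes and the same spread for all genes. That test does not cover a library that stands apart as replicate 1 does. Floors are 3 counts per library; without molecular identifiers, reads are not independent molecules, so floors cover counting error alone. The rule named all 10 members, the 3 genes nearest Trem2 and Spp1, and of each list the 3 highest by TPM and up to 3 called genes with the widest fold. Some other list genes, Syk among them, were named outside that rule. Members, lists and pairs were chosen with earlier results of these data known. Some list members are not reported here. Python 3.11.15 with pandas 2.3.3 did the rest.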

Additional observations from a re-analysis of the deposited data

Results flagged for a closer look

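Fabp5 in replicate 1 lay far from the other 3 libraries on 2 scales. Its rescaled TPM was 3210 there, with the nearest library at 4341 and the farthest at 4508, so the gap to the nearest library was 0.871 of the whole range. Its TMM-scaled log2 CPM was 10.1, with the others at 10.59 to 10.68, a gap of 0.847 of the range. Both exceed Dixon's critical value for 4 samples. The values come from the same counts, so they are 1 signal and not 2. Such a gap turns up by chance in about 1 of 20 sets, and 30 sets were looked at, the 10 genes on 3 scales. In deposited TPM replicate 1 of Fabp5 was 965, close to replicate 3 at 997 and replicate 2 at 1042, and it was replicate 4, at 1408, that lay off from the other 3, just short of the critical value.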

How the results depend on the processing

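No paired analysis was possible because the libraries form 1 group. The number of the 10 genes called in replicate 1 was 1, became 0 with DESeq2's size factors and 0 without the filter on low counts, and ranged from 0 to 3 when another replicate was left out. With the target tables it was also 1, but the gene was Cd9 and not Fabp5. The cause was not tested. The median log2(TPM + 1) of the 10 genes was 9.83 ± 0.26 (SD, n = 4), and moved to 8.26 with the target tables, 11.73 after rescaling over protein-coding genes and 10.67 in CPM. The levels of all 10 genes moved with the target tables and with rescaling, and none moved beyond its SD when a replicate was left out. The calls in replicates 2, 3 and 4 (0 of the 10 genes), and the 10 genes varying beyond counting, were the same under every alternative run for them. The leading transcript matched in 10 genes, and in 9 without replicate 1. Of the alternatives for single folds, 286 kept direction and call, 3 gained a call, 5 lost one and 26 changed sign, the last all in folds that were not called. With DESeq2's size factors, and alike with the DESeq2 test, the log2 fold became -0.007 for Plin2 in replicate 1, 0.006 for Apoe in replicate 2 and -0.006 for Spp1 in replicate 3, and the last was -0.017 without the filter. With the target tables it became 0.122 for Lgals3 in replicate 1, 0.009 for Apoe in replicate 2, -0.034 for Lgals3 and -0.073 for Spp1 in replicate 3, and -0.007 for Fabp5 and -0.008 for Tyrobp in replicate 4. Leaving out 1 of the other replicates gave log2 folds that crossed 0 in 12 cases. In replicate 1 these were -0.188 to 0.041 for Lgals3 and -0.242 to 0.240 for Plin2. In replicate 2 they were -0.247 to 0.333 for Apoe, -0.196 to 0.164 for Plin2 and -0.315 to 0.019 for Lpl. In replicate 3 they were -0.005 to 0.282 for Fabp5, -0.080 to 0.080 for Spp1 and -0.109 to 0.084 for Cd9. In replicate 4 they were -0.411 to 0.155 for Apoe, -0.067 to 0.185 for Fabp5, -0.086 to 0.043 for Spp1 and -0.187 to 0.033 for Cd9.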

Other observations

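Promoter windows of RefSeq (GRCm38.p6), from 250 bases before to 50 after a gene's start, were found for 7 of the 10 genes. Apoe had 3 windows, Spp1 had 2 and each other gene found had 1. All windows were searched on both strands for 6 motifs, with shares counted per window over 32817 promoters. CACGTG, the E-box form bound by MiT/TFE and USF factors, was found in a window of Plin2 and in 7.15% of all windows. TGANTCA, the AP-1 motif, was found for Gpnmb and Trem2 and in 7.81% of all. GAGGAAGT, an ETS motif of the PU.1 kind, was found for Spp1 and in 3.2% of all, and CATGTG for Cd9 and in 14.2%. TATAAA was found in 1 window of Apoe and 1 of Spp1, and in 13.6% of all. Its matches began at -100 and -96 bases from the start site in Apoe and at -211 in Spp1. The direct repeat bound by PPAR and RXR was found for none and in 0.0762% of all. A match describes these letters only, and binding was not measured.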
